A study of Mus musculus with 3 samples.

Results

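In mouse cochlear organoids kept in expansion medium, 1232 epithelial cells carried transcripts of the genes for gel proteins that cover the sensory epithelium of the inner ear. The cells were chosen from raw counts of unique molecular identifiers (UMIs, each standing for 1 captured transcript). A barcode was kept if it had at least 500 genes and at most 20% of its UMIs on mitochondrial genes. A kept cell was selected if it had at least 1 UMI of the epithelial adhesion gene Epcam, at least 2 UMIs of Tecta, Tectb and Otoa together (matrix UMIs below), 0 UMIs of Car9 and at most 1 UMI of Fgf3 and Dkk4 together. These measured values define the group, so they are given only as a description. The 1232 cells made up 6.24% (95% Clopper-Pearson interval 5.91 to 6.59%) of the 19737 kept expansion cells with an Epcam UMI and 4.40% of all 27996 kept expansion cells. The series held 48110 kept cells. The comparison group is the other 18505 Epcam cells of the same library.

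The organoids were grown from Lgr5+ cochlear progenitors of C57BL/6 mice, and each of the 3 stages was deposited as 1 single-cell library. Expansion organoids came from passage 2 at day 8. Their medium held IGF at 50 ng/mL, EGF at 20 ng/mL and bFGF at 10 ng/mL, the GSK3 inhibitor CHIR99021 (3, with the unit written um in the labels), the ROCK inhibitor Y27632 (10 um) and the lysophospholipid LPA (2.5 um) on a DMEM/F-12 base with N2 and B27. The organoids of differentiation days 5 and 25 passed through the same expansion step. They were then moved to a medium with bFGF, BDNF, Shh, A83-01, RA and, for the initial 5 days, LY4115775. All organoids were dissociated with 0.125% trypsin for 25 min, sorted as single living cells after DAPI staining and run on 10x 3' v3 chemistry. With 1 library per stage and cells that are not replicates of each other, no test was possible, no p-value is given and the stages cannot be told apart from their libraries. Intervals below are exact 95% intervals that cover counting error only.

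Tecta and Tectb encode alpha- and beta-tectorin, the non-collagenous glycoproteins of the tectorial membrane, the gel that lies over the hair cells. Otoa encodes otoancorin, which attaches such gels to the surface of nonsensory cells. In the developing cochlea the tectorins are made by cells that include the tall cells of the greater epithelial ridge medial to the hair cells. Otoancorin is best known from the interdental cells of the spiral limbus. Mgp encodes matrix Gla protein, a secreted inhibitor of calcification.

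The 250 bases before the annotated starts of Tectb and Otoa are shown from RefSeq (GRCm38.p6), 5′ to 3′ on the gene's strand. Searched motifs are in capitals. These genes were chosen because Otoa was seldom detected in cells with at least 2 Tectb UMIs. It had a UMI in 4 of 107 such cells, against 12.2% of the Epcam cells with no Tectb UMI. The Tectb stretch lies at chr19:55180476-55180725 and the Otoa stretch at chr7:121083174-121083423, both on the plus strand. In the GENCODE annotation of GRCm38 the Otoa gene begins further upstream, at 121081650, so the stretch lies inside that gene model.
Tectb: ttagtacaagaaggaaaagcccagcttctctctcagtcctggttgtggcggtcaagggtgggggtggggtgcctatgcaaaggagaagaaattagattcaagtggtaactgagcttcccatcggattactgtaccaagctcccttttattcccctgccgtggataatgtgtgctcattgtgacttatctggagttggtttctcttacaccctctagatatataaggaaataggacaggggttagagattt
Otoa: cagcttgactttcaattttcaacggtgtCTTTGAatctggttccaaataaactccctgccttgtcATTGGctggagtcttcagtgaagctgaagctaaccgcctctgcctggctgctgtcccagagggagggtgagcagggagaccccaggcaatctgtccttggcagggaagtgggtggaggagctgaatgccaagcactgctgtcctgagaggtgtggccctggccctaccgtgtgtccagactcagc
Both strands were searched for exact matches to TATAAA (a core of the TATA box) and CTTTGA (a core bound by the Wnt effectors TCF and LEF). They were also searched for CCAAT (the CCAAT box) and AACAAT (a core bound by SOX factors). The Otoa stretch held CTTTGA at base 29 and CCAAT on the opposite strand (read as ATTGG) at base 66. None of the 4 exact motifs was found in the Tectb stretch. Variant forms, such as the tatataag near its end, were not searched, so the absence of TATAAA does not mean that a TATA box is absent. Of 32851 mouse promoter stretches of this length in the same table, 12.4% held TATAAA, 13.8% CTTTGA, 33.8% CCAAT and 9.42% AACAAT. These matches describe letters only.

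The expansion library held 207026905 UMIs over 29098 barcodes, of which 935 were left out for few genes and 167 for mitochondrial share. The selected cells were deeper than the rest, with a median of 12167.5 UMIs and 3412 genes against 5970 UMIs and 2019 genes in the other Epcam cells. Over 10 equal bins of depth, the share of Epcam cells selected was 1.98% in the shallowest bin (median 1900.5 UMIs) and 15.96% in the deepest (median 25094.5 UMIs). Shares of cells with a UMI are therefore also given after thinning every cell to 2000 UMIs, which left out 12 selected, 1082 other Epcam and 173 reference cells. The reference cells, in which epithelial UMIs stand for free RNA, were 4853 kept cells with 0 Epcam UMIs and at least 3 UMIs of the mesenchyme genes Otor, Pou3f4, Col1a2 and Postn. Their median depth was 4075 UMIs. Doublets were kept in. A doublet caller marked 7.06% of the selected cells and 8.38% of the others, and 6.30% of all kept cells where 22.4% would be expected at this number of cells. The expansion library shared 121 barcodes with day 5 and 51 with day 25, and 7 selected cells were among each.

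**Figure D1:**
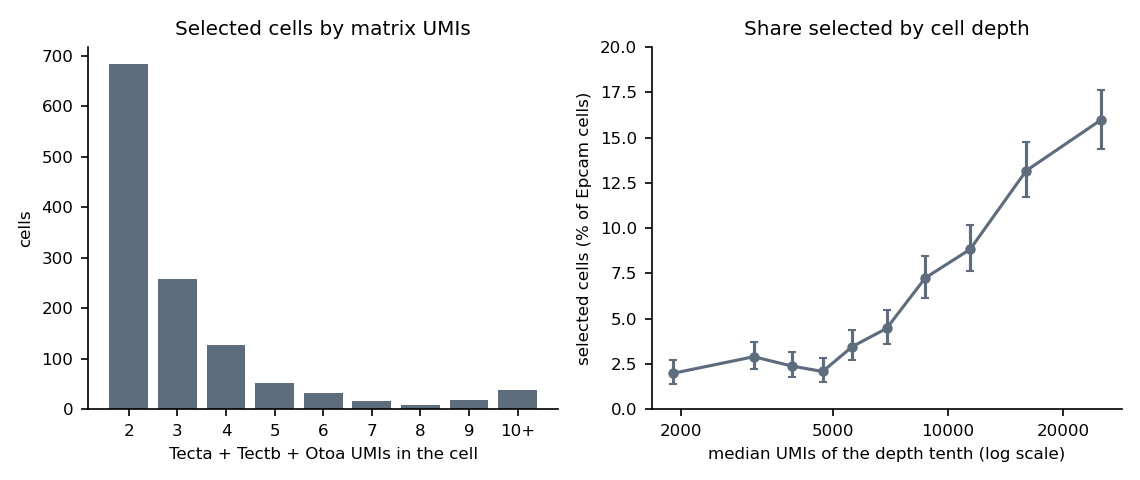
Left, number of selected cells (y axis) by Tecta, Tectb and Otoa UMIs in the cell (x axis). Right, selected cells as a percentage of Epcam cells (y axis, exact 95% intervals) in 10 equal bins of depth (x axis, median UMIs, log scale), from 1.98% in the shallowest to 15.96% in the deepest bin.

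Tecta was the most widely detected of the chosen genes in the selected cells. It had a UMI in 901 of them (73.1%), against 9.67% of the other Epcam cells. Otoa had a UMI in 769 cells (62.4%, against 8.79%). Tectb had a UMI in only 121 cells (9.82%, against 0.486%), but those cells held 702 of its UMIs, up to 30 in a cell. In 683 cells (55.4%) the group rested on exactly 2 matrix UMIs, 258 cells had 3, 127 had 4 and 164 (13.3%) had 5 or more, with a maximum of 34. After thinning, Tecta was found in 24.3%, Otoa in 21.6% and Tectb in 6.07% of the selected cells, against 0.470%, 0.256% and 0.0855% of the reference cells.

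The detected genes split the 1232 cells into classes. Tecta and Otoa without Tectb were found in 482 cells (39.1%), Tecta alone in 349 (28.3%) and Otoa alone in 280 (22.7%). The 121 cells with a Tectb UMI (Tectb cells below) comprised 45 with Tectb alone, 69 with Tecta, 6 with Otoa and 1 with all 3 genes. Over all kept Epcam cells, Otoa had a UMI in 12.2% of the 19526 cells with no Tectb UMI (median 6193 UMIs) and in 4 of the 107 cells with at least 2 Tectb UMIs (3.74%, 1.03 to 9.30%, median 8343 UMIs). Tecta went the other way, with a UMI in 13.3% and 52.3% (42.5 to 62.1%) of the same cells. In the 104 cells with exactly 1 Tectb UMI, Tecta was found in 31.7% and Otoa in 8.65% (4.03 to 15.8%). That interval for Otoa includes its share in the cells with no Tectb UMI. Among the selected cells Tectb was thus seen mostly with Tecta or alone, though the rule sums these genes and so shapes their overlap there. At 2 or more Tectb UMIs, Otoa was rare over all kept Epcam cells. Those with at least 2 Tectb UMIs were deeper than those with none, by the medians above. Among the selected cells, however, the Tectb cells were the shallowest class, with a median of 8343 UMIs. The other classes had medians of 9371, 15029 and 14405.5 UMIs.

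The label of these cells, greater ridge-like cells with Tectb and Otoa, held only in part. Tectb had a UMI in 9.82% of them, Otoa in 62.4% and Tecta, which the label does not name, in 73.1%. Of the other genes of the ridge list, Epyc and Dcn, which encode small leucine-rich proteoglycans, stood at 256 and 517 CPM (a gene's UMIs summed over a group's cells, per 1000000 UMIs of that sum). Fgf10, a growth factor of the medial cochlear floor, stood at 67.3 CPM and the Notch ligand gene Jag1 at 108 CPM. Calb1 (1.20 CPM) and Fst (0.342 CPM), both known from the postnatal ridge and its neighbours, were near 0. Crabp1 and the tectorial membrane gene Ceacam16 had 0 UMIs, which allows up to 0.171 CPM. The cells are therefore called here by the matrix genes that selected them. For the mesenchyme, hair cell, neuronal, macrophage and endothelial-erythroid lists, the sums lay below those of the other Epcam cells. Sums of the supporting, interdental, lateral, strial, glial and multiciliated cell lists are not given. The 12 mesenchyme genes summed to 615 CPM (730 CPM in the other Epcam cells) and 20 hair cell genes to 130 CPM (175). Sums were 2.51 CPM (4.42) for 9 neuronal genes, 1.88 CPM (2.14) for 8 macrophage genes and 26.0 CPM (58.3) for 8 endothelial and erythroid genes.

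The cut at 2 matrix UMIs lay at the largest rise of Epyc, but not at those of Clu and Mgp. Epyc also rose below and above the cut. Epyc stood at 74.4 CPM in the 13283 Epcam cells with 0 matrix UMIs that met the other limits, 114 CPM in the 2354 cells with 1, 229 CPM in the 683 with 2, 266 CPM with 3 or 4 and 333 CPM with 5 or more. Clu, which encodes the secreted chaperone clusterin, ran from 35.8 CPM with 0 matrix UMIs to 44.6 with 1, 60.7 with 2, 70.4 with 3 or 4 and 327 with 5 or more. Its step thus lay inside the group, not at its edge. Mgp stood at 38.0, 36.4, 46.7, 42.9 and 75.1 CPM in the same order. The cut on Car9 left out 189 cells with 1 Car9 UMI that met the other limits, and the cut on Fgf3 and Dkk4 left out 9 cells with 2 UMIs. Of the selected cells, 44 had exactly 1 Epcam UMI.

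Against the other Epcam cells, the selected cells differed in few genes beyond those that chose them. A gene counted as measured if it reached 20 CPM in the selected or the other cells. Of 5629 measured genes, 6 (0.107%) were higher and 15 (0.266%) lower by 2-fold of CPM + 1, with a median log2 ratio of 0.07 over all of them. Since the rule drew the groups from the same cells, these counts describe the selection and support nothing further. With TMM scaling that median was -0.04, with 4 genes higher and 16 lower.

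The 6 higher genes were Epyc, Clu, Cbln2, Sdk2, Ntm and Sparcl1. Epyc was at 256 against 85.1 CPM (3.01-fold, 2.91 to 3.12), with a UMI in 49.0% against 18.2% of cells and, after thinning, in 24.8% against 9.72% (reference cells 1.39%). Clu was at 102 against 35.7 CPM (2.84-fold, 2.70 to 3.00) and, after thinning, in 11.3% against 5.66% of cells (reference 0.919%). Sparcl1, which encodes a secreted matrix protein related to SPARC, was at 73.9 against 36.2 CPM (2.04-fold) and after thinning in 15.9% against 6.49% of cells (reference 2.80%). The cell surface genes Sdk2 (24.7 against 10.96 CPM) and Ntm (32.7 against 15.2 CPM), both known from contacts between neurons, and the secreted synaptic organiser gene Cbln2 (35.1 against 15.5 CPM) were 2.15-fold to 2.27-fold higher. Just under the threshold were Fgf10 (67.3 against 34.3 CPM), Efhd1 (173 against 91.0 CPM) and Sox21 (25.3 against 12.3 CPM).

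Other matrix genes did not pass 2-fold in the group as a whole. Otog, which encodes otogelin of the acellular gels, was at 89.9 against 53.1 CPM (1.69-fold, 1.60 to 1.79). Its relative Otogl was at 14.97 against 10.4 CPM (1.44-fold), and Dcn at 517 against 342 CPM (1.51-fold). Mgp was at 49.4 against 37.4 CPM (1.32-fold, 1.23 to 1.42). It had a UMI in 30.4% against 19.3% of cells before thinning and in 8.11% against 6.74% after it (reference 1.18%). Of 9 measured tectorial and otoconial matrix genes, 1 was higher (Sparcl1) and 0 lower, with a median log2 ratio of 0.43, where the genes of the rule were left out. Sparcl1 lay at the threshold: its log2 ratio was 1.01, it was 0.91 with TMM scaling, and the gene passed 2-fold under 8 of 16 alternatives. Of 13 ridge genes, 1 was higher (Epyc) and 0 lower, with a median of 0.31 and all 13 log2 ratios above 0. Of 12 supporting cell genes 1 was higher, again Sparcl1, and of 5 interdental genes none.

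The 15 lower genes included genes known from mesenchyme, genes carried by few cells and others such as S100a6 and Gadd45g. Otor, a secreted protein gene of cochlear mesenchyme, was at 77.9 against 178 CPM (2.29-fold lower), Apoe at 57.7 against 131 CPM (2.28-fold) and Emcn at 24.3 against 55.9 CPM (2.30-fold). Otor stood at 1980 CPM in the reference cells. Among selected cells, 139 (11.3%) carried at least 3 UMIs of the 4 mesenchyme genes, and 35.3% of these were called doublets; among the others the share was 15.7%. The part of these UMIs in the difference was not tested. Without such cells in either group, 7 genes were lower, 6 of them among the 15. Weighting the other cells to the depth of the selected ones gave 3 lower genes, 2 of them among the 15. S100a6, which encodes a calcium-binding protein, was at 78.5 against 253 CPM (3.23-fold lower, 3.06 to 3.41), after thinning in 9.51% against 13.9% of cells. Gadd45g, a gene induced by stress and growth arrest, was at 29.7 against 62.1 CPM. The defensin genes Defa22 (1.99 against 22.8 CPM) and Defa21 (6.95 against 22.8 CPM) had UMIs in 14 and 12 selected cells, and 1 cell held 51.4% and 48.4% of them. Ccer2 (10.9 against 36.7 CPM) and Pcp4 (14.9 against 31.1 CPM), which encodes a calmodulin regulator also found in hair cells, were lower too, but their direction turned when the rule was applied to thinned cells.

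**Figure D2:**
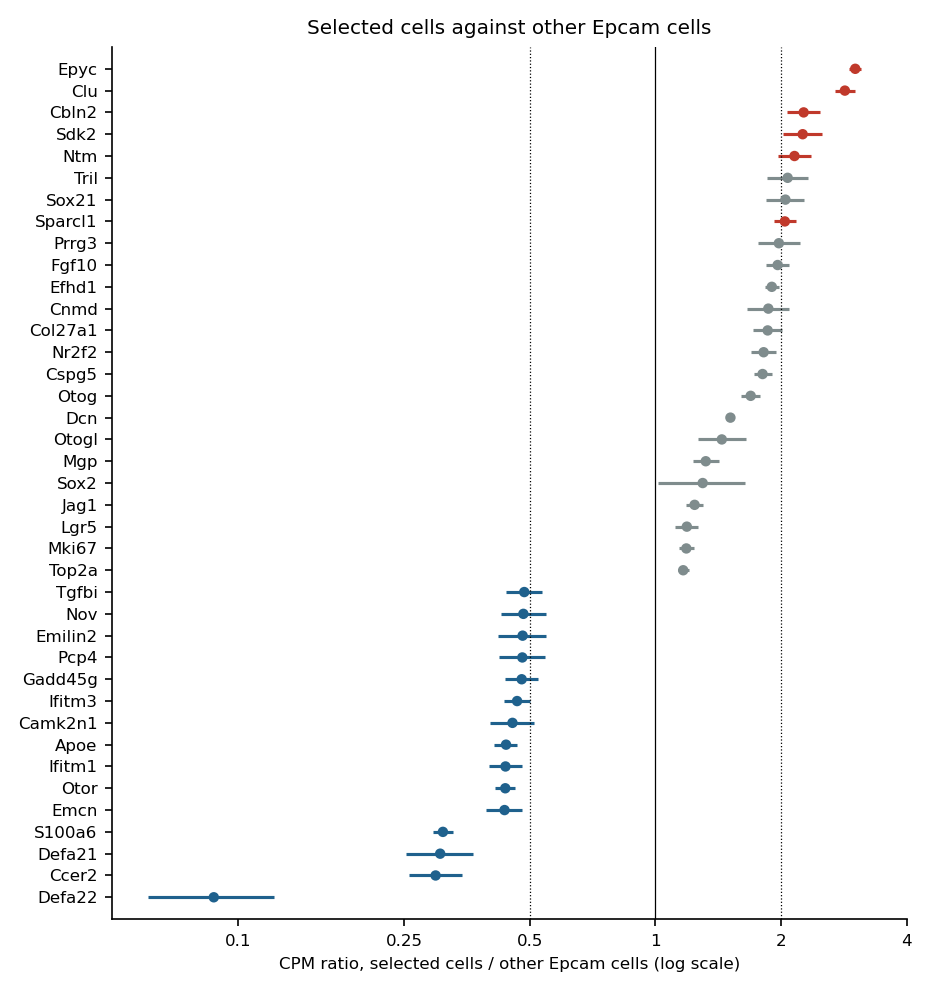
Ratio of CPM in the 1232 selected cells to CPM in the 18505 other Epcam cells (x axis, log scale) for the genes named by rule (y axis), with exact 95% intervals for counting error; red and blue mark genes past 2-fold of CPM + 1, dotted lines a ratio of 2 and of 0.5. Epyc and Clu stand furthest to the right, and Defa22 and Ccer2 furthest to the left.

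Within the group, the class of 121 Tectb cells had a profile of its own. Its higher genes included the transcription factor genes Meis2 and Sox2, the axon guidance gene Sema3a and Mgp, while the keratin gene Krt18 and Epyc were among the lower ones. Of 5759 measured genes, 72 (1.25%) were higher and 37 (0.642%) lower than in the other Epcam cells. With TMM scaling, which moved the median of all genes from 0.04 to -0.06, 45 were higher and 51 lower, so the balance between the directions depended on the scaling. The class held 1258292 UMIs, against 17564236 in all selected cells, so its small counts are less certain.

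Meis2, a homeobox factor, stood at 73.9 CPM in Tectb cells and 9.13 CPM in the other Epcam cells (8.10-fold, 6.49 to 9.99), with a UMI in 30.6% against 5.21% of cells. Sema3a, which encodes a secreted repellent of growing axons, stood at 102 against 15.4 CPM (6.62-fold, 5.50 to 7.91). Sox2, a transcription factor that marks the prosensory domain and later the supporting cells, stood at 21.5 against 3.51 CPM (6.12-fold, 3.99 to 8.997) from 27 UMIs in 22 cells. Mgp, the marker of the label that took no part in the selection, was at 175 against 37.4 CPM (4.67-fold, 4.07 to 5.35) with a UMI in 67 of 121 cells. After thinning, Mgp was found in 27.7% (19.9 to 36.7%) of Tectb cells, 6.74% of other Epcam cells and 1.18% of reference cells. The same order held for Sema3a, at 21.8%, 2.79% and 0.342%, and for Meis2, at 10.1%, 1.62% and 0.299%.

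Further genes past 2-fold in Tectb cells came from several lists. The serine protease gene Prss23 was at 124 against 33.5 CPM (3.70-fold) and the progenitor receptor gene Lgr5 at 143 against 51.2 CPM (2.80-fold, 2.40 to 3.24). With Sox2 these made 3 of 13 supporting cell genes higher and 0 lower. Of 13 ridge genes, 4 were higher (Fgf10 at 99.3, Pcolce2 at 43.7, Inhba at 119 and Dcn at 690 CPM) and 1, Epyc, was lower (38.9 against 85.1 CPM, 2.18-fold). Col2a1, the collagen of cartilage and of the tectorial membrane, was at 360 against 135 CPM (2.66-fold). Among otic transcription factors, Sox2 and Isl1 (126 against 57.8 CPM) were higher of 7. The homeobox factor gene Hmx3 went the other way, at 6.36 against 21.6 CPM. The neuropeptide gene Grp (30.2 CPM), Slitrk4 (21.5 CPM), Ntng1 (27.02 CPM) and the Myc family gene Mycl (34.2 CPM) were 3.61-fold to 5.79-fold higher, the last 3 from 27 to 43 UMIs each. The lowest among the named genes outside the defensins was Krt18, a keratin gene of simple epithelia, at 6.36 against 47.2 CPM (7.42-fold lower, 3.76 to 17.2). Igfbp4 was at 44.5 against 128 CPM and Dab1 at 4.77 against 25.3 CPM. Mesenchyme genes summed to 604 CPM, and none of 3 measured was higher. The cell cycle lists had 0 of 26 S phase and 0 of 30 G2/M genes past 2-fold in either direction.

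The 280 cells with Otoa as the sole matrix gene (Otoa cells below) showed another profile. They were higher in Otog, Otogl, Sparcl1, the otoconial genes Oc90 and Otol1, and the actin-severing gene Gsn. They were also higher in Epyc, which they shared with the cells of Tecta alone and of Tecta and Otoa. All 30 G2/M genes had log2 ratios below 0, none of them past 2-fold. Of 5789 measured genes, 54 (0.933%) were higher and 9 (0.155%) lower than in the other Epcam cells, a comparison that shares its other cells with that of the Tectb class. Of 11 tectorial and otoconial matrix genes, 6 were higher and 0 lower, with a median log2 ratio of 1.03 and all 11 above 0, where the median of all genes was 0.05.

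Otog stood at 141 CPM in Otoa cells and 53.1 CPM in the other Epcam cells (2.65-fold, 2.40 to 2.91). It was found after thinning in 22.1% against 8.63% of cells (reference 0.791%). Otog was not particular to this class, as Tectb cells held it at 107 CPM and, after thinning, in 18.5% of cells. Otol1, a collagen-like gene of otoconia, was at 236 against 102 CPM (2.31-fold), and Oc90, which encodes the main otoconial protein, at 29.9 against 12.3 CPM (2.43-fold). The collagen gene Col11a2 was at 64.6 against 25.5 CPM and Sparcl1 at 116 against 36.2 CPM (interval of the ratio 2.87 to 3.56). Gsn was at 43.2 against 5.69 CPM (7.603-fold, 6.30 to 9.12), with a UMI in 22.9% against 4.01% of cells. The chondroitin sulphate proteoglycan gene Cspg5 was at 190 against 59.6 CPM (3.19-fold, 72.5% against 29.9% of cells), Bmp6 at 26.4 against 6.95 CPM and the tetraspanin gene Tspan8 at 45.8 against 10.3 CPM. Epyc was at 238 CPM, 2.80-fold higher. After thinning it had a UMI in 23.6% of Otoa cells, 24.4% of Tecta-alone cells and 31.0% of cells with Tecta and Otoa.

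A gene outside the naming rule, 1500015O10Rik, listed in RefSeq as Ecrg4, a secreted peptide precursor, was chosen after its values were seen. It stood at 7172 CPM in Otoa cells and 1930 CPM in the other Epcam cells (3.72-fold), and at 139 CPM in the reference cells. The shares of cells differed less: after thinning it had a UMI in 85.5% of Otoa, 76.2% of other Epcam and 22.1% of reference cells. In contrast, the apparent leader of the Otoa class, Vmo1 (77.9 against 4.15 CPM), had UMIs in 2 cells, 1 of which held 244 of 245, and stood at 0.318 CPM without it. Clu (114 CPM) drew 18.4% of its UMIs from 1 cell. Mgp was at 30.8 CPM in Otoa cells (ratio 0.824, 0.667 to 1.01), with a UMI in 21.1% of them (16.4 to 26.3%), 19.3% of other Epcam cells and 2.66% of reference cells. After thinning to 2000 UMIs it was found in 5 of 276 Otoa cells (1.81%, 0.591 to 4.18%). After thinning to 4000 UMIs it was found in 10.97% (7.29 to 15.7%), against 11.99% of other Epcam and 2.96% of reference cells, so the distance from the other Epcam cells depended on the thinning. None of 30 G2/M genes passed 2-fold, but all 30 log2 ratios lay below 0, with a median of -0.38. After thinning, at least 3 UMIs of the G2/M list were found in 43.8% of Otoa cells, 50.4% of Tectb cells, 68.9% of Tecta-alone cells, 62.6% of cells with Tecta and Otoa and 54.7% of other Epcam cells. Cells of the Tecta classes were the deepest, with medians of 15029 and 14405.5 UMIs against 9371 for Otoa and 8343 for Tectb cells.

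**Figure D3:**
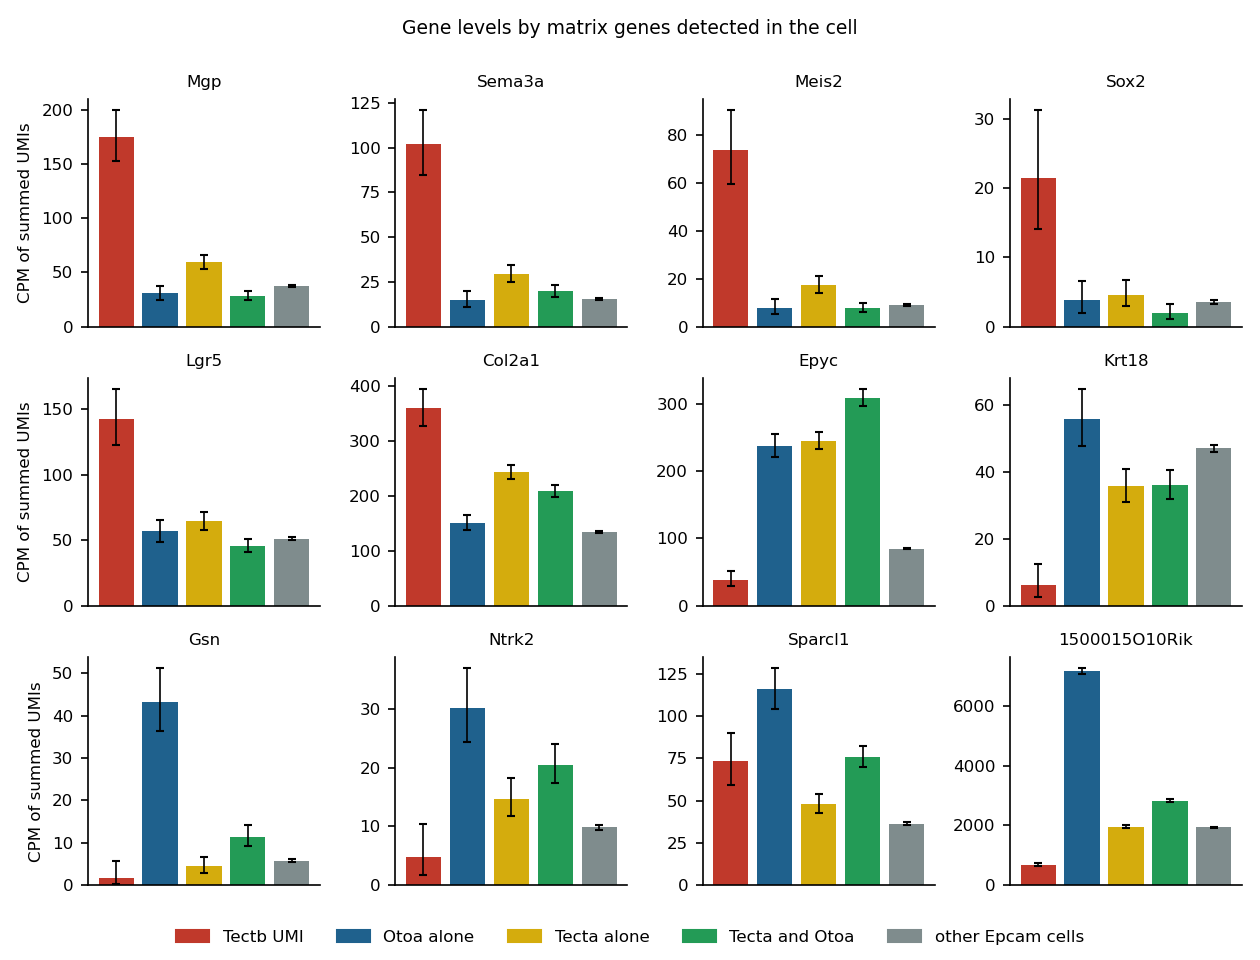
CPM of summed UMIs (y axes, from 0, each gene on its own scale) in the 4 classes of selected cells and the other Epcam cells, with exact 95% intervals for counting error. Mgp, Sema3a, Meis2, Sox2, Lgr5 and Col2a1 are highest in Tectb cells, whereas Gsn, Ntrk2, Krt18, Sparcl1 and 1500015O10Rik are highest in Otoa cells.

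Set directly against each other, Tectb cells held more Mgp, Meis2, Sema3a and Lgr5, and Otoa cells more Gsn, Epyc and simple keratin transcripts. Of 6009 measured genes, 58 (0.965%) were higher in Tectb cells and 123 (2.05%) higher in Otoa cells. Mgp was 5.67-fold higher in Tectb cells (175 against 30.8 CPM, 4.44 to 7.27), Meis2 9.30-fold (5.92 to 15.1), Sema3a 6.81-fold and Lgr5 2.51-fold. Sox2 was at 21.5 against 3.82 CPM. Lgals1, which encodes galectin-1, was at 457 against 92.2 CPM (4.96-fold). Grp (38 against 3 UMIs), Pcp4 and Ccer2 had wider ratios, but Ccer2 had UMIs in 8 of the 121 Tectb cells and 1 cell held 40.3% of those of Pcp4.

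In the opposite direction, Gsn had 2 UMIs in Tectb cells and 136 in Otoa cells (1.59 against 43.2 CPM, 27.2-fold, 7.39 to 227). The GPI-anchored protein gene Ly6e was at 13.5 against 118 CPM, and the simple epithelial keratin genes Krt8 (5.56 against 44.8 CPM) and Krt18 (6.36 against 55.97 CPM) were 8.06-fold and 8.80-fold lower in Tectb cells. Epyc was at 38.9 against 238 CPM (6.11-fold, 4.57 to 8.33) and the neurotrophin receptor gene Ntrk2 at 4.77 against 30.2 CPM, though Ntrk2 stood at 46.7 CPM in reference cells. Otol1 was 3.72-fold and Oc90 2.89-fold lower in Tectb cells, whereas Col2a1 was 2.38-fold higher. Ridge genes split 2 higher (Pcolce2, Inhba) to 2 lower (Epyc, Lum) of 13. Otog (107 against 141 CPM) and Otogl (16.7 against 22.3 CPM) did not pass 2-fold. Called doublets made up 8.26% of Tectb and 6.79% of Otoa cells, and cells with at least 3 mesenchyme UMIs 9.09% and 11.1%.

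Cells of the same rule were also present in the other libraries, at 6532 of 8851 Epcam cells on day 5 (73.8%, 72.9 to 74.7%) and 2018 of 5371 on day 25 (37.6%, 36.3 to 38.9%). Median depths of the selected and the other Epcam cells were 7331 and 5638 UMIs on day 5 and 10370 and 8787 UMIs on day 25. Tectb cells were 10.0% of them on day 5 (655 cells) and 32.8% on day 25 (661 cells). Otoa cells were 1.15% (75 cells) and 6.34% (128 cells). The rule was written for the expansion library, but the classes were chosen with earlier results of these data known. The split in these other libraries is therefore given as a description only.

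On day 25, Mgp stood at 2047 CPM in Tectb cells and 357 CPM in Otoa cells, Sox2 at 51.7 against 7.602 CPM and Sema3a at 43.5 against 5.57 CPM. All 3 thus lay on the same side as in expansion. Isl1 was at 219 against 55.2 CPM, Pcolce2 at 181 against 13.7 CPM, the cadherin gene Cdh4 at 119 against 4.05 CPM and Col2a1 at 356 against 8.11 CPM. Lower in Tectb cells on day 25, as in expansion, were Epyc (334 against 1665 CPM), Krt8 (499 against 2529 CPM), Krt18 (491 against 1773 CPM), Ly6e (68.1 against 484 CPM) and Cspg5 (36.2 against 256 CPM). Meis2 was reversed on day 25 (34.4 against 111 CPM), as were Lgals1 (126 against 369 CPM), Prss23 (45.7 against 108 CPM) and Ntrk2 (275 against 129 CPM). Gsn, at 427 against 275 CPM, did not pass 2-fold.

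Of the 58 genes higher in expansion Tectb cells, 33 were measured on day 25, 15 were higher there and 4 lower. The 15 are 25.9% of the expansion list and 5.07% of the 296 genes higher on day 25 (4.34% of 6825 measured). Of the 123 lower genes, 106 were measured, 48 were lower on day 25 and 9 higher. These 48 are 39.0% of the expansion list and 9.52% of the 504 genes lower on day 25 (7.38%). On day 5, 10 of the 58 were higher and 3 lower, and 39 of the 123 were lower and 3 higher, where 4.24% and 5.51% of 6154 genes were higher and lower. Day 5 Tectb cells had a median of 19670 UMIs against 5174 in the 75 Otoa cells. Sox2 (89.1 against 3.97 CPM) and Isl1 (177 against 25.8 CPM) kept their side on day 5, while Mgp was reversed (456 against 953 CPM). Beside this, 5 of 6 measured mesenchyme genes were lower in day 5 Tectb cells, with sums of 626 against 1666 CPM, and their part in the reversal was not tested.

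**Figure D4:**
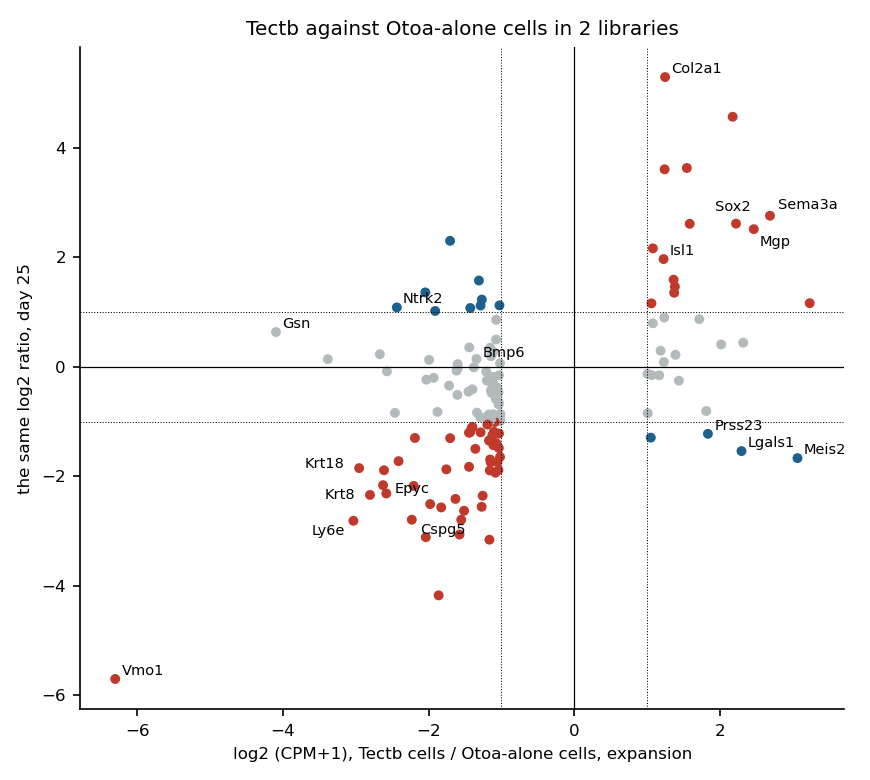
Each point is 1 of the genes past 2-fold between Tectb and Otoa cells in expansion and measured on day 25, placed by its log2 ratio of CPM + 1 in expansion (x axis) and on day 25 (y axis); dotted lines mark 2-fold. Red points pass 2-fold on the same side in both libraries (15 higher, 48 lower), blue points on opposite sides, among them Meis2, Lgals1 and Ntrk2.

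Clustering of the 1232 cells alone gave 11 sub-clusters, numbered by size and described only by their genes. Neither the genes of the rule nor the genes compared below were left out of the clustering. The differences between sub-clusters therefore describe the clustering and are no separate support for the split. Sub-cluster 5 (115 cells) held most Tectb cells: Tectb had a UMI in 67.8% and Otoa in 9.57% of its cells. There Mgp stood at 254 CPM against 34.4 CPM in the remaining selected cells, Meis2 at 86.8 against 10.4 CPM, Lgr5 at 188 against 51.6 CPM and Epyc at 40.9 against 272 CPM. Sub-cluster 10 (88 cells) held Otoa in 89.8% of cells and Tectb in none, which allows up to 3.41% of its cells. Its cells had 1500015O10Rik at 25122 against 1955 CPM, Clu at 991 against 52.3 CPM, Npnt, an integrin ligand gene, at 620 against 79.4 CPM, Ntrk2 at 150 against 12.0 CPM and the anion exchanger gene Slc26a4 at 44.4 against 1.86 CPM. The division genes Mki67 (36.8 against 159 CPM) and Top2a (73.6 against 298 CPM) were lower in it. Its cells averaged 4.59 matrix UMIs, against 3.26 over all selected cells. Of sub-cluster 5, 90.4% stayed together at a resolution of 0.5 and 89.6% at 2, and of sub-cluster 10, 79.5% and 96.6%.

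**Figure D5:**
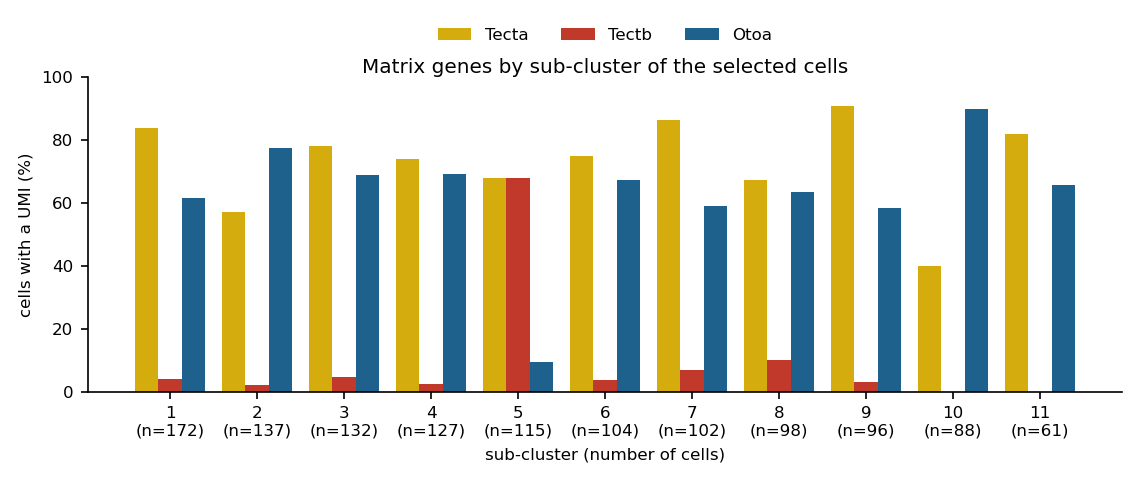
Share of cells with a UMI of Tecta, Tectb and Otoa (y axis, %) in the 11 sub-clusters of selected cells (x axis, with cell numbers). Tectb reaches 67.8% in sub-cluster 5, where Otoa falls to 9.57%, and Otoa reaches 89.8% in sub-cluster 10.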

How the data were processed

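Organoid cells of the 3 stages were profiled with 10x 3' v3 chemistry, 1 library each. The authors deposited raw UMI counts per gene and barcode, made with Cell Ranger, whose versions 3.0.1 and 3.1.0 are given per the file headers. As builds, GRCm38 and hg38 are listed in the submitters' processing notes, without a role. Annotation and settings are not given in the sources used here. Total counts were 207026905, 140255047 and 76296949 UMIs for expansion, day 5 and day 25. Samples were grouped by their titles.

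Counts were summed per group of cells and scaled to CPM. A gene was measured at 20 CPM or more in either group and called higher or lower at 2-fold of CPM + 1. Intervals are exact Poisson or binomial (95%). UMIs remove PCR copies, but the intervals still cover counting error only. Named genes were, in each direction, the 15 with the largest ratios outside the genes of the rule, ribosomal, mitochondrial and unnamed genes, up to 4 of each list with the largest ratios, and 15 fixed markers. The members, classes and gene lists were chosen with earlier results of these data known. Doublets were called with scrublet in scanpy 1.11.5 and kept. Sub-clusters came from Leiden clustering at resolution 1 on 30 principal components of 2000 variable genes, without leaving out the genes of the rule. Other software was Python 3.11.15, numpy 2.4.6, scipy 1.17.1 and pandas 2.3.3. The calling was tested on simulated data.

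Alternatives were other scalings (TMM, median of ratios), a pseudocount of 5 CPM, a floor of 1 CPM, means of per-cell CPM, weighting to depth, the rule on cells thinned to 2000 UMIs, shares after thinning to 4000 UMIs, at least 3 or 5 matrix UMIs, stricter cell filters (1000 genes, 10% mitochondrial), other limits on Epcam, Car9, Fgf3 and Dkk4, and leaving out called doublets. Leaving out cells with mesenchyme UMIs, or the cell with most UMIs of each gene, and the other clustering resolutions were chosen after seeing the data.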

Additional observations from a re-analysis of the deposited data

How the results depend on the processing

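The number of selected cells was 176 when the rule was applied to cells thinned to 2000 UMIs, 549 at 3 matrix UMIs and 164 at 5. Their share of Epcam cells was then 1.20%, 2.78% and 0.831%. It was 6.99% with at least 2 Epcam UMIs, 6.66% with the stricter cell filter and 8.16% with no limits on Car9, Fgf3 and Dkk4. With a floor of 1 CPM, genes higher and lower numbered 25 and 30 in the selected cells, 393 and 520 in Tectb cells, 167 and 119 in Otoa cells and 498 and 768 between the classes. With the rule on thinned cells they numbered 217 and 131, 1073 and 839, 1223 and 786, and 1406 and 1544. At 5 matrix UMIs they were 90 and 26, 179 and 137, 1094 and 637, and 705 and 1148. At 3 matrix UMIs, 23 were higher in the selected cells, 109 in Tectb cells, 214 in Otoa cells (41 lower), and 143 and 326 differed between the classes. Means of per-cell CPM gave 17 higher, 151 and 66, 91 higher, and 139 and 233 in the same order. A pseudocount of 5 CPM gave 2 and 9 in the selected cells and 45 and 22 in Tectb cells. Among selected cells, 12 genes were higher against cells within the same Car9, Fgf3 and Dkk4 limits, and those lower were 3 with depth weighting, 4 with at least 2 Epcam UMIs and 7 without cells with mesenchyme UMIs. In Tectb cells, TMM and median of ratios scaling left 45 higher, and leaving out the top cell of each gene gave 41 and 71. The fewer cells summed, the fewer UMIs a floor of 20 CPM stands for.

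Directions of named genes past 2-fold turned as follows, as log2 ratios. On thinned cells Ccer2 (0.21) and Pcp4 (0.30) were above 0 in the selected cells, and Cnmd was at -0.23 in Otoa cells. Vmo1 in Otoa cells was at -2.89 on thinned cells, -2.68 at 3 and -2.64 at 5 matrix UMIs and -1.38 without its top cell. Between the classes it was at 0 on thinned cells and at 3 and 5 matrix UMIs. Among named genes not past 2-fold, the sign of Fst, Mki67, Calb1, Jag1 and Top2a in the selected cells and of Rpf2 in Otoa cells also turned under at least 1 alternative. Of the named genes called, 4 of 21 stayed past 2-fold under every alternative run in the selected cells, 25 of 30 in Tectb cells, 16 of 24 in Otoa cells and 28 of 30 between the classes. No paired analysis was possible because each stage has 1 library, and no library could be left out.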

Other observations

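Beside sub-clusters 5 and 10, values of named genes are given here for 4 other sub-clusters of the selected cells. Sub-cluster 11 (61 cells) had Epyc at 1071 CPM against 193 CPM in the other selected cells, with the homeobox genes Dlx2 (55.0 against 15.6 CPM) and Dlx1 (25.5 against 6.01 CPM) and the cartilage growth factor gene Cnmd (85.2 against 15.6 CPM). Tectb had 0 UMIs there. Sub-cluster 2 (137 cells) had the matrix proteoglycan gene Vcan at 169 against 52.4 CPM and Krt18 at 91.7 against 30.1 CPM. In sub-cluster 3 (132 cells) the glycolytic enzyme gene Aldoa was at 1185 against 407 CPM and the lactate transporter gene Slc16a3 at 81.4 against 19.4 CPM, with Mki67 at 46.2 against 161 CPM. Sub-cluster 8 (98 cells) had Otor at 706 against 35.4 CPM and Apoe at 563 against 23.5 CPM. Of its cells, 61.2% were called doublets and 75.5% carried at least 3 mesenchyme UMIs.

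Among signalling and metabolic lists, few members passed 2-fold in the selected cells. Of 14 glycolysis and hypoxia genes none passed, and 13 ratios lay at or below 0 with a median log2 ratio of -0.35; the rule left out cells with the hypoxia marker Car9. Of 15 cholesterol synthesis genes none passed, with a median of -0.14. In Otoa cells all 12 measured immediate early genes had ratios above 0 (median 0.51), and none passed 2-fold. In Tectb cells the Hes family gene Hes6 (103 against 51.1 CPM), the BMP pseudoreceptor gene Bambi (53.2 against 19.6 CPM) and Igfbp5 (2380 against 1037 CPM) were higher. The FGF target gene Etv1 (14.3 against 32.4 CPM) was lower.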
